A study of Homo sapiens with 8 samples.

Results

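HOX cluster genes were followed across BAP1 targeting and irradiation in PANC1 cells, a human line derived from a pancreatic ductal carcinoma. They were taken as the probe sets annotated to a single symbol of the HOXA, HOXB, HOXC or HOXD series, which gave 47 of 49293 non-control probe sets and 27 of 18132 genes on the array. HOXB contributed 21 probe sets for 10 genes, HOXC 13 for 9, HOXD 11 for 7 and HOXA only 2, both for HOXA2. A further 2 probe sets carried a pair of HOXD symbols and were left out. RefSeq lists 39 genes in the 4 clusters, and 12 of them, 10 of HOXA among them, were not analysed here.

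RNA was measured on 8 Affymetrix PrimeView 3' IVT arrays, which read short stretches near the 3' ends of transcripts, with 2 arrays in each of 4 groups. The sgBAP1 + IR group carried CRISPR/Cas9 targeting of BAP1 and received 10 Gy of ionising radiation, the IR group was labelled wild type and received the same dose, the sgBAP1 group was targeted and not irradiated, and the control group was labelled wild type and not irradiated. RNA was taken 3 days after IR. According to the methods, the guide against exon 2 of BAP1 was delivered by transfection with puromycin selection. PANC1 is described in the study as having lost a copy of BAP1 beforehand, so that wild type here means not targeted. The labels do not say whether the wild-type cells received a non-targeting guide, and no source tells whether a group's 2 arrays stem from different cultures, so that p-values measure only the spread between these samples. On bulk RNA a change in some of the cells and a change in every cell cannot be told apart. Transcripts of BAP1 were not analysed here, and the labels were therefore not checked against the targeted gene.

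HOX genes encode homeodomain transcription factors that stand in 4 clusters, in which the order of the genes follows the order in which they are used along the body axis of the embryo: low numbers towards the head, high numbers towards the tail. Adult tissues and tumour lines keep part of this positional pattern. The clusters are classical targets of Polycomb complexes, which ubiquitinate histone H2A and methylate histone H3 to keep the genes silent, and of trithorax (MLL) complexes, which keep them active. BAP1 removes ubiquitin from histone H2A. HOX proteins bind DNA together with TALE homeodomain cofactors of the PBX and MEIS families, and retinoic acid is a known inducer of the genes at the low-numbered end.

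Values are log2 signals as normalised by the authors with RMA, and changes are limma log2 changes ± SE (n = 2 arrays per group, 6 comparisons). A probe set was called when its Benjamini-Hochberg adjusted p over all 49293 probe sets was under 0.05 and its fold change was over 1.5, that is, a log2 change over 0.585. Because most HOX changes were smaller than that, counts at the adjusted p alone are given as well. Genes whose arrays are said below not to overlap had passed the adjusted p in the same comparison. Such separation is therefore a description and adds no support, and its share over all probe sets was not counted. Quantile normalisation had set the array medians close together (6.12 to 6.15 log2), and the SD within a group was 0.0787 log2 for the median probe set. One measure moved with targeting. The log2 difference between the 3' and the 5' probe sets of ACTB, a sign of RNA integrity or labelling, was 0.74 and 0.72 in sgBAP1 + IR, 0.51 and 0.53 in IR, 0.82 and 0.81 in sgBAP1, and 0.58 and 0.56 in control, whereas that of GAPDH stayed between -0.05 and 0.06 on all arrays. The part of this shift in any sgBAP1 result below was not tested. The epithelial markers KRT8, KRT18, KRT19 and EPCAM averaged 13.05, 13.68, 11.35 and 10.03 log2, and KRT7 averaged 6.61. With IR against control, 3 of 5 ductal markers were called higher (KRT19 by 1.12 ± 0.05, adjusted p = 4.3e-05), where 3.05% of all probe sets were called. The acinar marker PRSS1 averaged 6.96 log2, and the other acinar markers measured lay between 2.99 (PNLIP) and 5.94 (CPA1). Endothelial markers averaged 5.34 to 5.79 log2, and the leukocyte marker CD3E averaged 5.18. The 3 islet markers measured were below 5 log2 in every group, and the leukocyte marker PTPRC averaged 3.45 log2. CD68, a lysosomal protein used as a leukocyte marker, averaged 8.34 log2, rose with targeting (0.93 ± 0.08, adjusted p = 0.00032) and fell with IR (-0.63 ± 0.08, adjusted p = 0.0025), each on 1 of its 2 probe sets, and its part in the HOX results was not tested.

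PANC1 cells gave clear signal from most of the HOXB and HOXC genes and almost none from HOXD. Of the 47 probe sets, 25 (18 genes) averaged above the median of all probe sets, 6.13 log2. These were 14 of 21 HOXB probe sets, covering HOXB2 to HOXB9 and HOXB13, 10 of 13 HOXC probe sets, covering all measured HOXC genes but HOXC12, and 1 of 11 HOXD probe sets, for HOXD10. A total of 16 probe sets were dim, with no group mean reaching 5 log2. HOXB1, the head-most gene of its cluster, was dim on all 3 of its probe sets (means of 3.94 to 4.79 log2), as were HOXC12 (4.48), HOXD1 (3.77), HOXD4 (4.06), both HOXD8 probe sets (4.02 each), both of HOXD9 (4.63 and 4.84), HOXD12 (2.98) and both of HOXD13 (3.70 and 4.54). The dimmer probe sets of HOXD10 (4.44) and HOXC11 (4.48) were also dim, so that each of these genes stood above the median on its brighter probe set only. HOXA2, which patterns the second pharyngeal arch, gave 5.42 log2 on its brighter probe set and 3.57 on the other. Signals of different probe sets depend on their probes as well as on the transcripts, so that these figures place a probe set on the array and do not rank the genes.

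**Figure D1:**
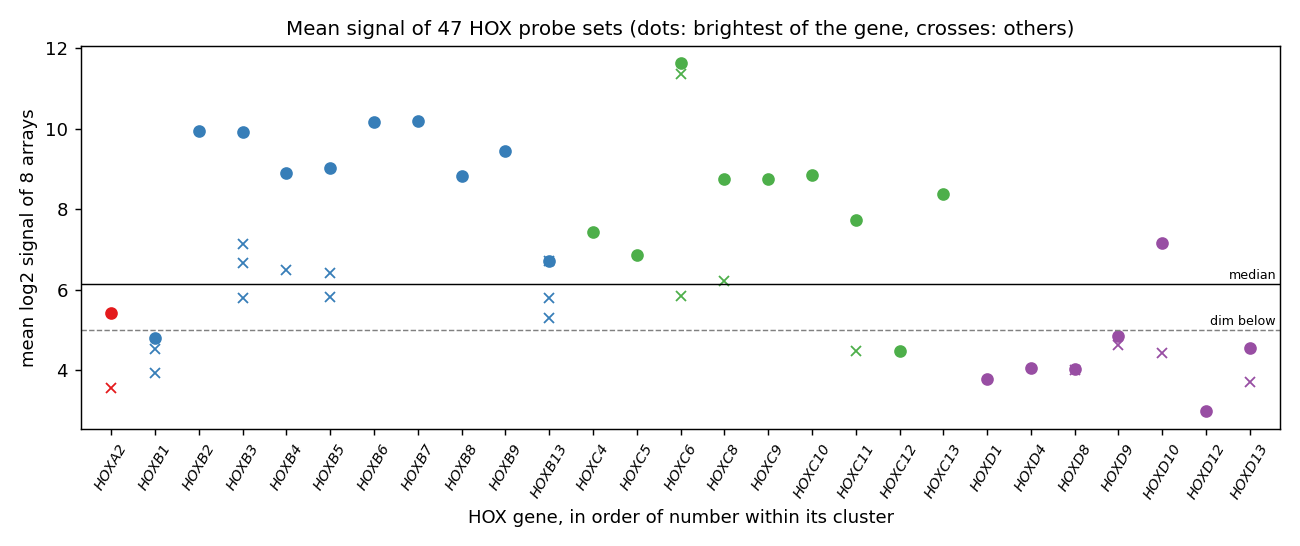
Mean log2 signal of 8 arrays (y axis) for the 47 HOX probe sets by gene (x axis); dots mark the brightest probe set of a gene, crosses its others, colours the cluster, the solid line the median of all probe sets (6.13) and the dashed line the limit for dim probe sets (5). HOXB2 to HOXB9, HOXB13 and all measured HOXC genes but HOXC12 lie above the median with their brightest probe set, and HOXD10 does so alone of 7 HOXD genes.

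HOXC4, HOXC5 and HOXC6 are given the same start in RefSeq (GRCh38.p14), as the head-most genes of HOXC can be transcribed from a shared upstream promoter into separately spliced messages. Since HOXC4 showed the largest HOX change of the 6 comparisons and HOXC5 and HOXC6 did not follow it in size, that window is shown. The promoter entries of HOXC4 and HOXC5 are identical: chr12:54016638-54016937, plus strand, from 250 bases before to 50 bases after the start. The 2 stretches in capitals are matches to CCAAT on the minus strand (ATTGG as printed).

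HOXC4 and HOXC5, shared window: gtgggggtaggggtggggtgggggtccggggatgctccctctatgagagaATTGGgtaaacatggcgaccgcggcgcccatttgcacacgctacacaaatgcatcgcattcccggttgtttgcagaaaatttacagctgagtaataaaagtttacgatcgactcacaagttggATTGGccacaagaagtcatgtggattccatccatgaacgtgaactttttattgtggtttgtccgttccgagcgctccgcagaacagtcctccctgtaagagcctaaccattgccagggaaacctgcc

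A CCAAT match was present in 34.6% of 34943 promoter windows of this length. No match was found in this window, on either strand, to TATAAA (11.6% of windows), GGGCGG (44.9%), TGATNNAT, the composite site of HOX and PBX proteins (7.42%), TAATTA (4.85%) or CACGTG (7.23%). The window holds 15 CpG dinucleotides, against a median of 14. Promoter entries were found for 10 of the 27 genes, and those of HOXB2 to HOXB9 were not among them.

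The first comparison asked what targeting of BAP1 did in cells that were not irradiated. HOXC4, a head-most HOXC gene known from lymphocytes, was the only HOX gene called and fell about 2-fold. It was read by a single probe set, so that the change could not be compared with that of another. Most other HOXC genes and 4 HOXB genes were lower by 0.19 to 0.49 log2, past the adjusted p but under the fold limit, and 2 HOX probe sets were higher. The 3' to 5' difference of ACTB given above moved in the same comparison. HOXC4 gave 6.86 and 6.70 log2 in sgBAP1 cells and 7.81 and 7.85 in control cells, so that the groups lay far apart relative to the gap between arrays. The change was -1.05 ± 0.07 (2.07-fold, adjusted p = 0.00014), and it stayed between -1.13 and -0.97 when any 1 of the 8 arrays was left out. Called probe sets made up 1 of 47 HOX probe sets and 4.68% of all probe sets.

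At the adjusted p alone, 14 of 47 HOX probe sets (29.8%, 11 genes) were lower and 2 (4.26%) were higher with targeting, against 14.4% lower and 11.6% higher over all probe sets. All of the lower probe sets were among the 25 above the median of the array (14 of 25, 56%), where 23.7% of 24646 probe sets were lower. The median HOX change was -0.11 log2, beside 0.00069 over all probe sets. Several probe sets read the same gene and neighbouring genes may share control, so that these probe sets are not independent.

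The HOXC cluster carried most of the lower signals. In HOXC, 9 of 13 probe sets (7 genes) were lower and none was higher, with a median of -0.24 log2. HOXC8, which patterns the thoracic skeleton in mice, gave 8.38 and 8.38 log2 in sgBAP1 cells and 8.75 and 8.71 in control cells on its brighter probe set (-0.35 ± 0.05, adjusted p = 0.0025), and its other probe set gave -0.37 ± 0.07. HOXC10, which takes part in specifying lumbar motor neurons in mice, gave 8.71 and 8.66 log2 in sgBAP1 cells and 9.03 and 9.01 in control cells (-0.33 ± 0.06, adjusted p = 0.0065). In both of these genes the arrays of the 2 groups did not overlap.

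The neighbours of HOXC4 moved less. HOXC5 gave 6.63 and 6.75 log2 in sgBAP1 cells and 6.99 and 6.98 in control cells (-0.29 ± 0.07, adjusted p = 0.017). HOXC6 gave 11.33 and 11.30 log2 in sgBAP1 cells and 11.52 and 11.54 in control cells (-0.22 ± 0.05, adjusted p = 0.017). The 95% interval of the change in HOXC4, -1.21 to -0.89, did not overlap those of HOXC5, -0.45 to -0.14, and HOXC6, -0.33 to -0.10. HOXC4 and HOXC5 were each read by a single probe set, and a difference in how the probe sets respond was not tested.

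Further along the cluster, HOXC9 gave 8.50 and 8.53 log2 in sgBAP1 cells and 8.73 and 8.72 in control cells (-0.21 ± 0.05, adjusted p = 0.022). HOXC13, a regulator of hair keratins, gave 8.27 and 8.30 log2 in sgBAP1 cells and 8.51 and 8.54 in control cells (-0.24 ± 0.07, adjusted p = 0.04). Both genes were lower on each sgBAP1 array than on either control array. HOXC11 gave 7.72 and 7.63 log2 in sgBAP1 cells and 7.76 and 7.82 in control cells, which did not pass the test (-0.11 ± 0.06, adjusted p = 0.23). Of the HOXC genes that passed, HOXC13 did so in 2 of the 8 fits that each left out 1 array, HOXC6 and HOXC9 in 4 and HOXC5 in 5.

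In HOXB, 5 of 21 probe sets (23.8%) were lower and 2 (9.52%) were higher, against 14.4% lower and 11.6% higher over all probe sets. Above the median of the array 5 of 14 HOXB probe sets (35.7%) were lower, against 23.7% of all. The lower HOXB signals were those of HOXB8, HOXB3, HOXB2 and HOXB6. HOXB8, whose forced expression keeps myeloid progenitors dividing in mice, gave 8.41 and 8.29 log2 in sgBAP1 cells and 8.86 and 8.82 in control cells (-0.49 ± 0.06, adjusted p = 0.0013). HOXB2, which acts in the hindbrain, gave 9.57 and 9.58 log2 in sgBAP1 cells and 9.89 and 9.85 in control cells (-0.30 ± 0.05, adjusted p = 0.0056). HOXB6 gave 9.80 and 9.81 log2 in sgBAP1 cells and 10.06 and 10.03 in control cells (-0.25 ± 0.05, adjusted p = 0.012). In all of these genes both sgBAP1 arrays lay below both control arrays, and the gaps between arrays of a group were smaller than the changes. As the genes were picked for passing in this comparison, that separation adds no support. HOXB6 passed in 5 of the 8 fits with 1 array left out.

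HOXB3 was read by 4 probe sets, of which the brightest (9.45 and 9.58 log2 in sgBAP1 cells, 9.88 and 9.87 in control cells) gave -0.36 ± 0.07 (adjusted p = 0.01) and another gave -0.27 ± 0.05 (adjusted p = 0.0067), while the remaining ones, at -0.18 and -0.10, did not pass. The signals of HOXB4 (8.72 and 8.66 log2 in sgBAP1 cells, 8.88 and 8.80 in control cells), HOXB5 (8.75 and 8.72 in sgBAP1 cells, 8.81 and 8.87 in control cells), HOXB7 (10.07 and 10.00 in sgBAP1 cells, 10.17 and 10.12 in control cells) and HOXB9 (9.12 and 9.10 in sgBAP1 cells, 9.21 and 9.24 in control cells) changed by -0.15, -0.11, -0.11 and -0.11, which did not pass the test. The higher signals were those of 1 of 4 probe sets of HOXB13, the tail-most HOXB gene and a prostate regulator (0.32 ± 0.07, adjusted p = 0.012), and of a dim probe set of HOXB1 (0.38 ± 0.09, adjusted p = 0.017). On its brightest probe set HOXB13 gave 6.87 and 6.82 log2 in sgBAP1 cells and 6.49 and 6.79 in control cells, and HOXD10 gave 7.11 and 7.17 in sgBAP1 cells and 6.92 and 7.15 in control cells, and neither passed.

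**Figure D2:**
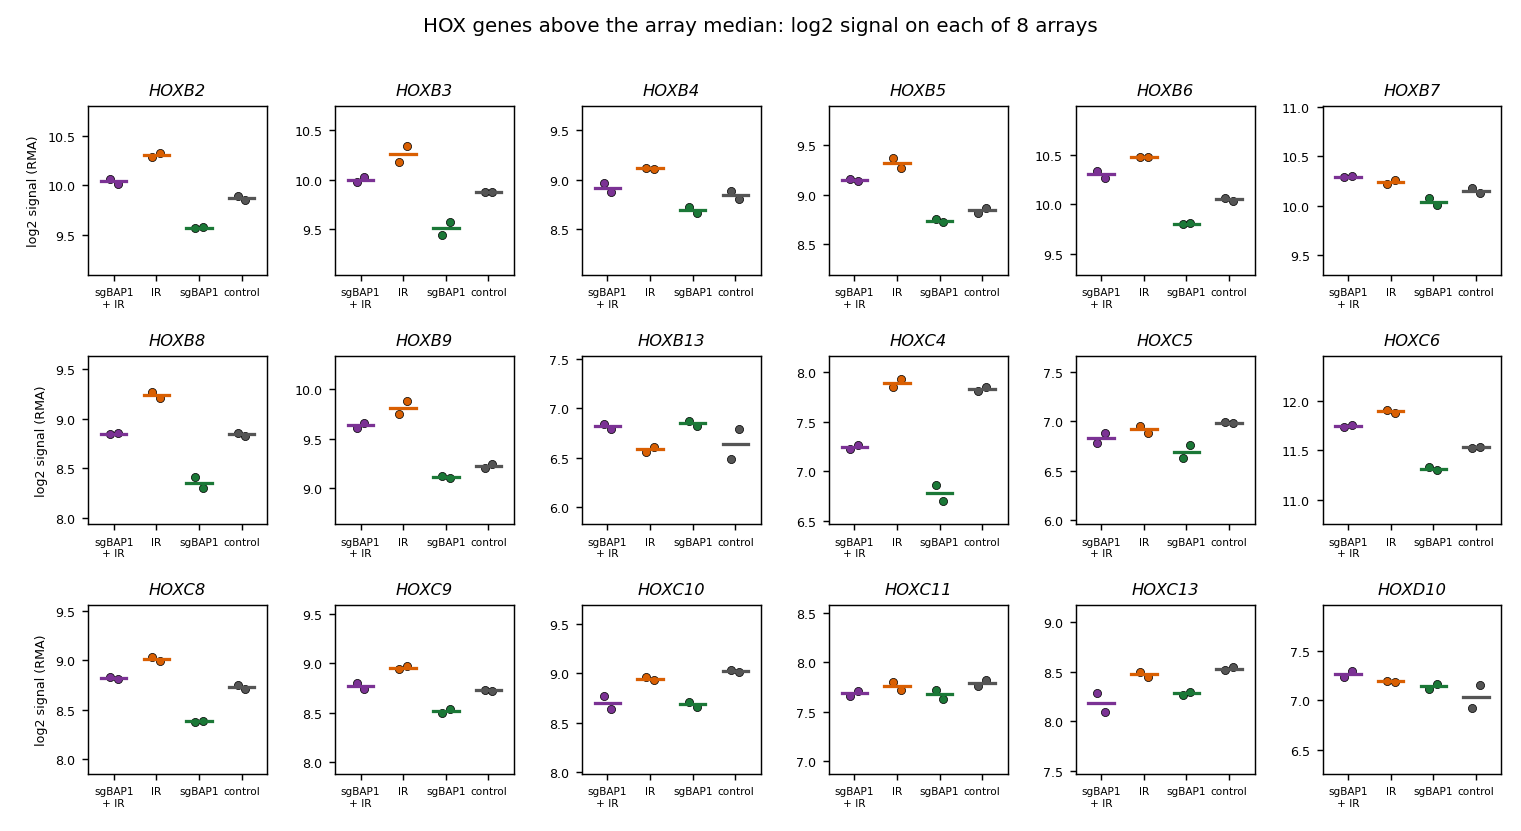
Log2 signal (y axis) on each of 8 arrays for the brightest probe set of the 18 HOX genes above the array median; points are arrays, bars group means, groups run from sgBAP1 + IR to control, and all panels span the same range. HOXC4 is low in both targeted groups (7.23 and 7.26 in sgBAP1 + IR, 6.86 and 6.70 in sgBAP1), while HOXB2 to HOXB6, HOXB8 and HOXB9 are highest in IR.

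The same targeting was set against its own irradiated reference in the sgBAP1 + IR and IR cells. HOXC4, on its single probe set, was again the only HOX gene called and fell. It gave 7.23 and 7.26 log2 in sgBAP1 + IR cells and 7.85 and 7.93 in IR cells, without overlap (-0.65 ± 0.07, 1.57-fold, adjusted p = 0.0022), where 1.81% of all probe sets were called. At the adjusted p alone 7 HOX probe sets (14.9%) were lower and 1 (2.13%) was higher, against 9.82% lower and 6.08% higher over all probe sets. Above the median it was 7 of 25 (28%), against 16.8% of all bright probe sets.

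The lower genes here were HOXC4, HOXC8, HOXC10, HOXC13, HOXB2, HOXB3 and HOXB8, and each of them had also been lower in untreated cells. HOXB3 passed only on a dimmer probe set (-0.23 ± 0.05, adjusted p = 0.022), and its brightest did not pass (-0.26 ± 0.07, adjusted p = 0.054). HOXC8 passed on its brighter probe set (-0.19 ± 0.05, adjusted p = 0.04), whereas its dimmer one gave 0.05 ± 0.07 (adjusted p = 0.69). With each of the 8 arrays left out in turn, HOXC4 passed every time and HOXB8 in 7 of 8 fits. On the probe sets that passed here, HOXB2 and HOXB3 did so in 4, HOXC10 and HOXC13 in 1, and HOXC8 in 0. HOXB8 gave 8.84 and 8.85 log2 in sgBAP1 + IR cells and 9.27 and 9.20 in IR cells (-0.39 ± 0.06, adjusted p = 0.0072). HOXC13 gave 8.28 and 8.10 log2 in sgBAP1 + IR cells and 8.50 and 8.45 in IR cells (-0.28 ± 0.07, adjusted p = 0.035). HOXC10 gave 8.76 and 8.64 log2 in sgBAP1 + IR cells and 8.96 and 8.93 in IR cells (-0.24 ± 0.06, adjusted p = 0.036). HOXC5, at 6.78 and 6.88 log2 in sgBAP1 + IR cells and 6.95 and 6.88 in IR cells, did not pass (-0.09 ± 0.07, adjusted p = 0.42). The higher signal was that of a dim HOXD9 probe set (0.39 ± 0.09, adjusted p = 0.025).

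**Figure D3:**
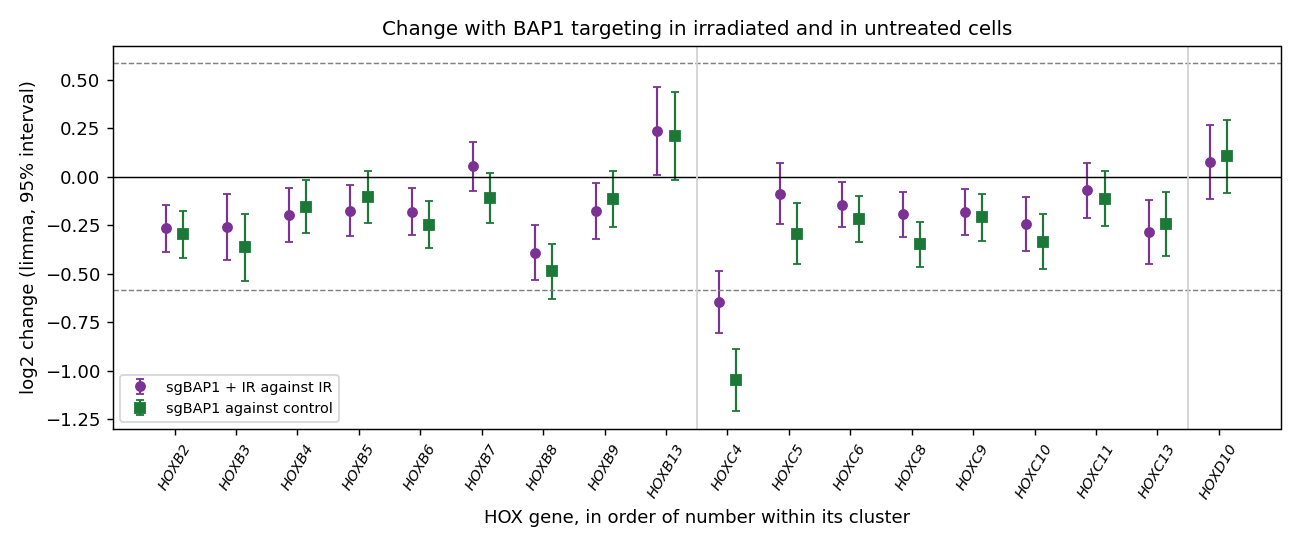
Log2 change with BAP1 targeting (y axis, limma estimate with 95% interval) for the brightest probe set of 18 HOX genes in cluster order (x axis); circles show sgBAP1 + IR against IR, squares sgBAP1 against control, and dashed lines the fold limit of 1.5. HOXC4 lies past the limit in both (-0.65 and -1.05); the other genes lie between -0.49 and 0.23.

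The next comparison asked what IR did in cells that were not targeted. HOXB9, a thoracic HOXB gene, was the only HOX gene called and rose 1.5-fold. HOXB2 to HOXB6 and HOXB8 were higher by 0.27 to 0.48 log2 on their brightest probe sets, past the adjusted p but under the fold limit, and so were HOXC6, HOXC8 and HOXC9. The tail-most genes of both clusters, HOXB13 and HOXC10 to HOXC13, did not pass in either direction. HOXB9 gave 9.75 and 9.88 log2 in IR cells and 9.21 and 9.24 in control cells, without overlap (0.59 ± 0.06, adjusted p = 0.0011). Its estimate lay just past the limit of 0.585, and without IR replicate 2 or control replicate 1 the call was lost (0.52 to 0.65 over the arrays left out). Called probe sets made up 1 of 47 HOX probe sets and 3.05% of all probe sets.

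At the adjusted p alone 16 of 47 HOX probe sets (34.0%, 10 genes) were higher and 1 (2.13%), a dim probe set of HOXD9, was lower with IR, against 8.31% higher and 9.04% lower over all probe sets. Among probe sets above the median, 15 of 25 HOX probe sets (60%) were higher, against 12.5% of all 24646. In HOXB it was 12 of 21 probe sets (7 genes), with a median of 0.37 log2, beside -0.0014 over all probe sets, and none was lower. In HOXC it was 4 of 13 (3 genes), with a median of 0.06.

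HOXB5 gave 9.37 and 9.27 log2 in IR cells and 8.81 and 8.87 in control cells (0.48 ± 0.06, adjusted p = 0.0019), and its 3 probe sets all passed. HOXB2 gave 10.28 and 10.32 log2 in IR cells and 9.89 and 9.85 in control cells (0.44 ± 0.05, adjusted p = 0.0019). HOXB6 gave 10.48 and 10.48 log2 in IR cells and 10.06 and 10.03 in control cells (0.43 ± 0.05, adjusted p = 0.002). For all of these the lowest IR array stood above the highest control array.

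HOXB3 gave 10.18 and 10.34 log2 in IR cells and 9.88 and 9.87 in control cells (0.39 ± 0.07, adjusted p = 0.012), and 3 of its 4 probe sets passed, with the largest change on a dimmer one (0.55 ± 0.05, adjusted p = 0.00065). HOXB8 gave 9.27 and 9.20 log2 in IR cells and 8.86 and 8.82 in control cells (0.40 ± 0.06, adjusted p = 0.0051). HOXB4, which expands blood stem cells when overexpressed, gave 9.12 and 9.11 log2 in IR cells and 8.88 and 8.80 in control cells (0.27 ± 0.06, adjusted p = 0.021), and its dimmer probe set gave 0.52 ± 0.07. HOXB7 stands between HOXB6 and HOXB8 in the cluster and did not pass. It gave 10.22 and 10.26 log2 in IR cells and 10.17 and 10.12 in control cells (0.09 ± 0.05, 95% interval -0.03 to 0.22, adjusted p = 0.31). That interval lies below the estimates of both neighbours.

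In HOXC the higher genes were HOXC6, HOXC8 and HOXC9. HOXC6 gave 11.91 and 11.88 log2 in IR cells and 11.52 and 11.54 in control cells (0.36 ± 0.05, adjusted p = 0.0035). HOXC9 gave 8.94 and 8.97 log2 in IR cells and 8.73 and 8.72 in control cells (0.22 ± 0.05, adjusted p = 0.024). HOXC8 gave 9.03 and 8.997 log2 in IR cells and 8.75 and 8.71 in control cells (0.28 ± 0.05, adjusted p = 0.0093), whereas its dimmer probe set gave -0.03 ± 0.07, so that the probe sets of HOXC8 disagreed. HOXC4 gave 7.85 and 7.93 log2 in IR cells and 7.81 and 7.85 in control cells (0.06 ± 0.07, adjusted p = 0.61), a gap no larger than that between arrays. With 1 array left out, HOXC9 passed in 4 of 8 fits, HOXB3 on its brightest probe set and HOXB4 in 5, and HOXC8 in 7.

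The genes at the tail end showed small differences. HOXC10 gave 8.96 and 8.93 log2 in IR cells and 9.03 and 9.01 in control cells, with a 95% interval of the change of -0.21 to 0.07. HOXC11 gave 7.80 and 7.72 log2 in IR cells and 7.76 and 7.82 in control cells, with overlap. HOXC13 gave 8.50 and 8.45 log2 in IR cells and 8.51 and 8.54 in control cells, with an interval of -0.22 to 0.11. For HOXB13 the interval on the brightest probe set was -0.28 to 0.17, with 6.56 and 6.61 log2 in IR cells and 6.49 and 6.79 in control cells. HOXD10 gave 7.20 and 7.18 log2 in IR cells and 6.92 and 7.15 in control cells and did not pass.

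IR was then followed in targeted cells, by setting sgBAP1 + IR against sgBAP1. Here the IR and control arrays play no part in the change. At the adjusted p, 8 of 10 HOXB genes were higher (HOXB2 to HOXB9), together with HOXC4, HOXC6, HOXC8 and HOXC9, while HOXB1 did not pass and 1 probe set of HOXB13 was lower. The only called probe set was 1 of the 4 of HOXB3, which gave 7.30 and 7.32 log2 in sgBAP1 + IR cells and 6.74 and 6.70 in sgBAP1 cells (0.59 ± 0.05, adjusted p = 0.00056). It lay just past the fold limit, and the call was lost without sgBAP1 replicate 2 or sgBAP1 + IR replicate 2 (0.57 to 0.61 over the arrays left out). Called probe sets made up 3.09% of all.

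At the adjusted p alone 17 of 47 HOX probe sets (36.2%, 12 genes) were higher and 2 (4.26%) were lower, against 8.55% higher and 10.4% lower over all probe sets. Above the median it was 16 of 25 (64%), against 11.9% of all bright probe sets. HOXB gave 10 of 21 (8 genes), with a median of 0.26 log2, and HOXC gave 7 of 13 (4 genes), with a median of 0.25, beside 0.016 over all probe sets. The lower signals were those of a HOXB13 probe set (-0.24 ± 0.07, adjusted p = 0.044) and of a dim HOXD13 probe set (-0.21 ± 0.05, adjusted p = 0.035).

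HOXB9 gave 9.61 and 9.66 log2 in sgBAP1 + IR cells and 9.12 and 9.10 in sgBAP1 cells (0.53 ± 0.06, adjusted p = 0.0018). HOXB6 gave 10.34 and 10.27 log2 in sgBAP1 + IR cells and 9.80 and 9.81 in sgBAP1 cells (0.50 ± 0.05, adjusted p = 0.0012). HOXB2 gave 10.06 and 10.02 log2 in sgBAP1 + IR cells and 9.57 and 9.58 in sgBAP1 cells (0.47 ± 0.05, adjusted p = 0.0016). HOXB3, HOXB4, HOXB5 and HOXB8 were higher by 0.23 to 0.49 on their brightest probe sets (adjusted p of 0.0021 to 0.036). On these probe sets the arrays of the groups did not overlap in any of these genes, which adds no support, since they were picked for passing here. The dimmer probe set of HOXB4 passed as well (adjusted p = 0.047). The dimmer ones of HOXB5 did not (adjusted p = 0.11 and 0.10), nor did those of HOXB3 other than the brightest and the called one (adjusted p = 0.071 and 0.18). HOXB7, at 10.29 and 10.30 log2 in sgBAP1 + IR cells and 10.07 and 10.00 in sgBAP1 cells, now passed the adjusted p (0.26 ± 0.05, adjusted p = 0.018).

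HOXC4 gave 7.23 and 7.26 log2 in sgBAP1 + IR cells and 6.86 and 6.70 in sgBAP1 cells (0.46 ± 0.07, adjusted p = 0.0044). HOXC8 gave 8.83 and 8.81 log2 in sgBAP1 + IR cells and 8.38 and 8.38 in sgBAP1 cells (0.44 ± 0.05, adjusted p = 0.0017), and here its dimmer probe set gave 0.39 ± 0.07. HOXC6 gave 11.74 and 11.76 log2 in sgBAP1 + IR cells and 11.33 and 11.30 in sgBAP1 cells (0.43 ± 0.05, adjusted p = 0.0017), on all 3 probe sets past the adjusted p. HOXC9 gave 8.80 and 8.74 log2 in sgBAP1 + IR cells and 8.50 and 8.53 in sgBAP1 cells (0.25 ± 0.05, adjusted p = 0.015). HOXC10, HOXC11 and HOXC13 again did not pass (0.02, 0.01 and -0.09). With 1 array left out, HOXB4 passed in 2 of 8 fits, HOXB7 in 4 and HOXC9 in 5.

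**Figure D4:**
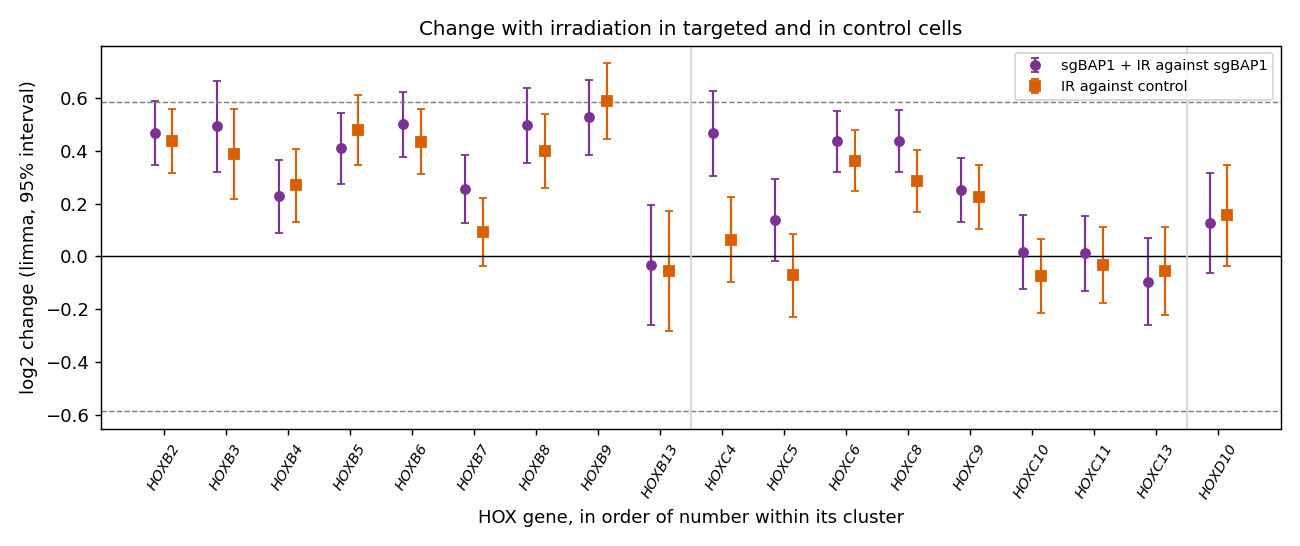
Log2 change with IR (y axis, limma estimate with 95% interval) for the brightest probe set of 18 HOX genes in cluster order (x axis); circles show sgBAP1 + IR against sgBAP1, squares IR against control, and dashed lines the fold limit of 1.5. HOXB2 to HOXB6, HOXB8, HOXB9, HOXC6, HOXC8 and HOXC9 lie above 0 in both, the tail-most genes near 0, and HOXC4 has the widest gap (0.46 and 0.06).

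Whether IR acted differently in targeted and in control cells was tested as the interaction, the difference between both IR changes. No HOX probe set passed limma's adjusted p, in either direction, where 0.172% of all probe sets were higher and 0.42% lower, and 0.442% met both limits. At an unadjusted p under 0.05 it was 5 of 47, against 8076 of 49293. The largest was that of the dim HOXD9 probe set (0.58 ± 0.12, adjusted p = 0.087). HOXC4 (0.40 ± 0.10, adjusted p = 0.11) and the dimmer probe set of HOXC8 (0.42 ± 0.10, adjusted p = 0.11) came next. The rest of the 5 were HOXB probe sets with negative differences. They were a dim one of HOXB1 (-0.36 ± 0.12, adjusted p = 0.22) and the dimmer one of HOXB4 (-0.26 ± 0.10, adjusted p = 0.29). For HOXC4 the 95% interval of the difference was 0.18 to 0.63 without adjustment. The differences in HOXB were small on the brightest probe sets: -0.06 ± 0.09 for HOXB9, 0.03 ± 0.07 for HOXB2, 0.07 ± 0.07 for HOXB6 and 0.16 ± 0.08 for HOXB7, so that the call of HOXB9 without targeting and the passing of HOXB7 with it do not show that those genes responded differently.

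Where both treatments were combined and set against control, HOX genes stood on both sides. An unadjusted limma p under 0.05 was found for 19 of 47 HOX probe sets, against 21494 of all 49293. No HOX probe set was called by limma with both limits, while 7.19% of all probe sets were. HOXC4 came nearest, with 7.23 and 7.26 log2 in sgBAP1 + IR cells and 7.81 and 7.85 in control cells (-0.58 ± 0.07, adjusted p = 0.00076), just inside the fold limit. At the adjusted p alone 10 HOX probe sets (21.3%, 7 genes) were higher and 5 (10.6%, 5 genes) were lower, against 15.3% higher and 18.1% lower over all probe sets, and the median HOX change was 0.09 log2, beside 0.022. This comparison shares its control arrays with those of each treatment alone and is not independent of them.

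The higher genes were HOXB2, HOXB3, HOXB4, HOXB5, HOXB6, HOXB9 and HOXC6, and the lower ones HOXC4, HOXC10, HOXC13, HOXA2 and HOXD13. HOXB2 (0.17 ± 0.05, adjusted p = 0.04) passed in 0 of the 8 fits that each left out 1 array, and HOXC6 in 6 and HOXB6 in 7. HOXB9 gave 9.61 and 9.66 log2 in sgBAP1 + IR cells and 9.21 and 9.24 in control cells (0.41 ± 0.06, adjusted p = 0.0021). HOXC13 gave 8.28 and 8.10 log2 in sgBAP1 + IR cells and 8.51 and 8.54 in control cells (-0.34 ± 0.07, adjusted p = 0.0089), and HOXC10 changed by a similar amount (-0.32 ± 0.06, adjusted p = 0.0062). HOXB8 showed no net difference: 8.84 and 8.85 log2 in sgBAP1 + IR cells and 8.86 and 8.82 in control cells (0.01 ± 0.06, 95% interval -0.13 to 0.15), beside -0.49 for sgBAP1 alone and 0.40 for IR alone. HOXB3 (9.98 and 10.03 log2 in sgBAP1 + IR cells), HOXB4 (8.96 and 8.87) and HOXB5 (9.15 and 9.13) changed on their brightest probe sets by 0.13, 0.07 and 0.30 against control, and of these HOXB5 alone passed (adjusted p = 0.0058), the others through another probe set. HOXA2 (-0.38 ± 0.12, adjusted p = 0.045), with signal below the array median, and a dim probe set of HOXD13, which acts in digit formation (-0.29 ± 0.05, adjusted p = 0.0058), passed here. HOXC11 gave 7.66 and 7.71 log2 in sgBAP1 + IR cells, HOXB13 gave 6.84 and 6.79, and HOXD10 gave 7.24 and 7.30, and on these probe sets none of the 3 passed the adjusted p in any comparison.

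Genes that act with or beside the HOX clusters were read on their brightest probe set. Of 8 measured TALE cofactors (9 listed), 1 rose and none fell with IR, in control and in targeted cells, none was called with sgBAP1, and 2 rose in sgBAP1 + IR against control, with list medians between 0.02 and 0.17 log2 over the 6 comparisons. All probe sets were called at 3.05% for IR in control cells, 3.09% for IR in targeted cells, 4.68% for sgBAP1 and 7.19% for both against control. MEIS2, a partner of HOX proteins on DNA, gave 6.19 and 6.06 log2 in sgBAP1 + IR cells, 6.04 and 6.09 in IR cells, 4.92 and 4.86 in sgBAP1 cells and 4.79 and 4.90 in control cells. Its 4 irradiated arrays stood over 1 log2 above the 4 others, with a change of 1.23 ± 0.07 in targeted cells (adjusted p = 0.00012) and of 1.22 ± 0.07 in control cells (adjusted p = 8.5e-05), but this was 1 of its 5 probe sets. PBX4 gave 7.97 and 8.02 log2 in sgBAP1 + IR cells, 7.65 and 7.73 in IR cells, 7.59 and 7.55 in sgBAP1 cells and 7.34 and 7.30 in control cells, and was called only for sgBAP1 + IR against control (0.67 ± 0.06, adjusted p = 0.00018), on 1 of 2 probe sets. PKNOX1, another TALE cofactor, did not pass on its brightest probe set in sgBAP1 against control (-0.22 ± 0.10, adjusted p = 0.15), whereas a dimmer one fell there (-0.71 ± 0.12, adjusted p = 0.0045) and in sgBAP1 + IR against IR (-0.60 ± 0.12, adjusted p = 0.016).

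Of 17 trithorax and MLL activators, all measured, none was called higher, and only PSIP1 was called lower. That is 1 of 17, where 4.68% (sgBAP1) and 7.19% (sgBAP1 + IR) of all probe sets were called against control. At the adjusted p alone 5 of 17 were lower and 3 higher with sgBAP1 against control. Over all probe sets 14.4% were lower and 11.6% higher in that comparison. PSIP1 encodes LEDGF, which tethers MLL complexes to chromatin. It gave 8.78 and 8.71 log2 in sgBAP1 + IR cells, 9.23 and 9.20 in IR cells, 8.64 and 8.67 in sgBAP1 cells and 9.54 and 9.44 in control cells. It fell in sgBAP1 against control (-0.83 ± 0.06, adjusted p = 0.00016, 1 of 3 probe sets) and in sgBAP1 + IR against control (-0.74 ± 0.06, adjusted p = 0.00014, 2 of 3 probe sets). Medians of this list lay within -0.04 to 0.07 in the 6 comparisons.

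Of 16 measured retinoid genes (18 listed), 1 rose with IR in each background and 1 fell with targeting of untreated cells, with list medians between -0.01 and 0.09 log2; the called share of all probe sets was 3.05% for IR in control cells, 3.09% for IR in targeted cells and 4.68% for targeting. ALDH1A3, which makes retinoic acid, gave 9.83 and 9.68 log2 in sgBAP1 + IR cells, 9.26 and 9.26 in IR cells, 8.51 and 8.51 in sgBAP1 cells and 8.39 and 8.43 in control cells. It rose with IR by 1.24 ± 0.06 in targeted cells (adjusted p = 8e-05) and by 0.85 ± 0.06 in control cells (adjusted p = 0.00026), on 4 of 5 probe sets in each, and the difference between these changes did not pass (0.39 ± 0.09, adjusted p = 0.099). DHRS3, which turns retinaldehyde back into retinol, gave 7.35 and 7.31 log2 in sgBAP1 + IR cells, 7.73 and 7.73 in IR cells, 7.25 and 7.17 in sgBAP1 cells and 7.88 and 7.81 in control cells, and fell in sgBAP1 against control (-0.64 ± 0.06, adjusted p = 0.00034). Dimmer probe sets of CRABP2, a retinoic acid carrier (0.64 ± 0.07, adjusted p = 0.00047), and of RXRA, a retinoid receptor (-0.59 ± 0.09, adjusted p = 0.0019), were called in sgBAP1 + IR against control.

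Of 12 measured genes that flank the clusters (14 listed), 2 were called lower with sgBAP1 against control, where 4.68% of all probe sets were called. None was called higher in any of the 6 comparisons, and list medians lay between -0.07 and 0.05 log2. At the adjusted p alone 5 of the 12 were lower with sgBAP1 and none was higher. Over all probe sets 14.4% were lower and 11.6% higher there. Of 27 HOX genes 11 were lower and none higher there on their brightest probe sets. HIBADH, a mitochondrial enzyme of valine breakdown encoded beyond the HOXA cluster, gave 8.70 and 8.74 log2 in sgBAP1 + IR cells, 9.21 and 9.26 in IR cells, 8.52 and 8.59 in sgBAP1 cells and 9.49 and 9.43 in control cells, and fell in sgBAP1 against control (-0.90 ± 0.06, adjusted p = 0.00012) and in sgBAP1 + IR against control (-0.74 ± 0.06, adjusted p = 0.00012), each time on both of its probe sets. LNPK, an endoplasmic reticulum protein encoded beside HOXD, gave 7.94 and 7.91 log2 in sgBAP1 + IR cells, 8.23 and 8.20 in IR cells, 7.79 and 7.79 in sgBAP1 cells and 8.51 and 8.36 in control cells, and fell in sgBAP1 against control (-0.64 ± 0.06, adjusted p = 0.00055) on 2 of 6 probe sets. None of the 6 ParaHox genes, evolutionary relatives of the HOX genes that lie outside the clusters, was called in any comparison. At limma's adjusted p alone at most 2 of the 6 were higher, in sgBAP1 + IR against control, where 15.3% of all probe sets were higher. The only noncoding gene of the clusters measured, of 19 listed, was HOXB-AS3, which was not called and changed by 0.13 with IR against control (adjusted p = 0.31).

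**Figure D5:**
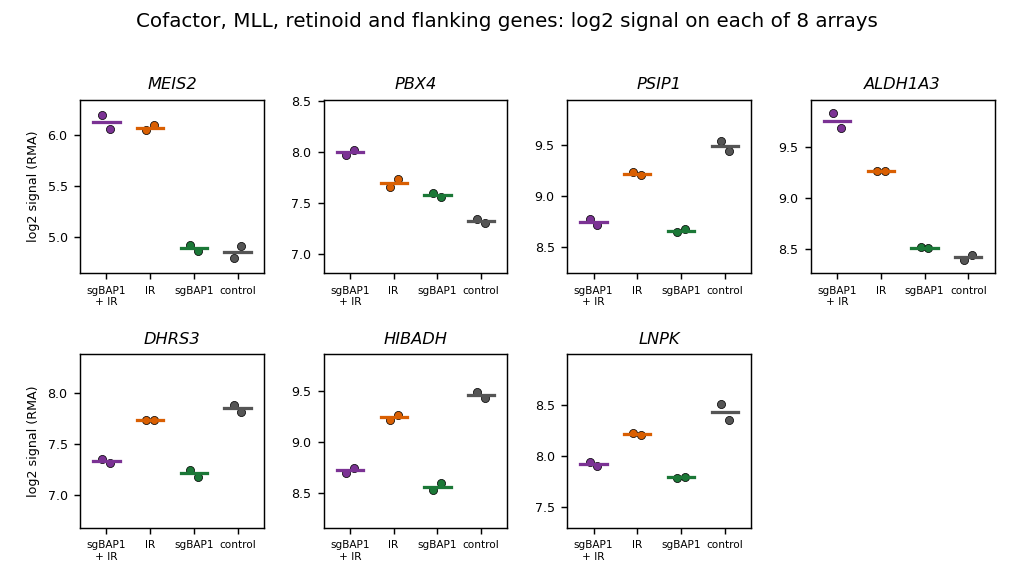
Log2 signal (y axis) on each of 8 arrays for called genes of the cofactor, MLL, retinoid and flanking lists; points are arrays, bars group means, and groups run from sgBAP1 + IR to control. MEIS2 and ALDH1A3 are high in both irradiated groups, while PSIP1, DHRS3, HIBADH and LNPK are low in both targeted groups.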

How the data were processed

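The authors deposited log2 signals computed with RMA, as their processing notes name it (background correction, quantile normalisation and probe set summary, per the study's methods in Expression Console). Of 49395 probe sets, 102 array controls were left out and 49293 were tested without a filter. Gene names came from the platform annotation, which gave 44988 probe sets a single symbol, 1832 several and 2473 none. All 27 HOX symbols matched RefSeq by Entrez ID. The members and lists were chosen with earlier results of these data known.

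All 8 arrays were fitted as 4 group means with limma 3.58.1 (lmFit, contrasts.fit and eBayes, R 4.3.3), with 4 residual degrees of freedom and 3.22 prior degrees of freedom, and p-values were Benjamini-Hochberg adjusted over all probe sets of a comparison. The fit was tested on simulated data. The number of arrays limits the precision, since signals carry no read depth. The study's methods give an unadjusted p under 0.01 with a fold change over 1.5, used as an alternative with the methods' t-test, a further normalisation, other filters and fits, and each array left out. An exact permutation test of 2 against 2 arrays cannot go below p = 0.333 and was not used. Where 1 value per gene was needed, the probe set with the highest mean was taken. HOX genes above the median of all probe sets or called in a comparison are given on every array, called members of the other lists are named (at most 4 per list and comparison), and the remaining genes are given by range and count. The genome build behind the array is not given in the sources used here, so that positions are given for the RefSeq window alone.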

Additional observations from a re-analysis of the deposited data

How the results depend on the processing

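No paired analysis was possible because the sample titles carry letters (A to H) and name no pairing between groups. Replicate numbers used here follow the order of the arrays within a group. Of 75 HOX changes past the adjusted p, the 52 in the 19 probe sets given on every array were recomputed and the other 23 were not. None of the 52 reversed: of 723 alternative values, 567 kept direction and side and 156 lost the adjusted p, 52 of them under the methods' t-test after Benjamini-Hochberg, which had 2 arrays per group and no shared spread; the cause of the other losses was not tested. Without the fold limit the counts of HOX probe sets were 16 for sgBAP1 against control, 17 for IR against control, 15 for sgBAP1 + IR against control, 19 for IR in sgBAP1 cells and 8 for sgBAP1 in irradiated cells, in place of 1, 1, 0, 1 and 1. With the methods' t-test after adjustment the counts were 0 for the 4 comparisons with a call, and without adjustment 0 for IR against control. With 1 probe set per gene the count for IR in sgBAP1 cells was 0, since the called HOXB3 probe set is not the brightest of its gene. With each array left out in turn the counts were 1 to 1 for sgBAP1 against control and for sgBAP1 in irradiated cells, 0 to 1 for IR against control (0 without control replicate 1 or IR replicate 2), 0 to 1 for sgBAP1 + IR against control (1 lower without control replicate 1 or sgBAP1 + IR replicate 2, 1 higher without sgBAP1 + IR replicate 1) and 0 to 1 for IR in sgBAP1 cells (0 without sgBAP1 replicate 2 or sgBAP1 + IR replicate 2); the interaction stayed at 0. The t-test and the fit on the arrays of both groups alone do not apply to the interaction. Dim probe sets, 16 of 47, limit what can be said of HOXD, HOXB1 and HOXC12.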
